A study of Mus musculus with 3 samples.

Results

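The cells described here are liver T cells in which no transcript of Cd8 or Cxcr6 was counted. They were chosen from the counts themselves. A cell barcode was taken when it had at least 200 detected genes, a unique molecular identifier (UMI, the count of 1 captured transcript) of at least 2 of the 6 T cell genes Cd3d, Cd3e, Cd3g, Trac, Trbc1 and Trbc2, and no UMI of Cd8a, Cd8b1 or Cxcr6. This rule found 590 of 25263 cells, namely 321 of 10386 control cells, 213 of 9253 cells from day 1 after injury (day 1) and 56 of 5624 cells from day 7 after injury (day 7). The values of these 9 genes are given as a description, with no test, because they chose the cells.

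The cells came from 3 Drop-seq libraries of adult C57BL/6 mouse livers. Drop-seq encloses each cell in a droplet with a bead that carries the barcode and reads transcripts from their 3′ ends. In the control library the tissue came from uninjured liver, labelled as sham operated and taken after 1 day, and in the others from liver 1 day or 7 days after irreversible electroporation (IRE), in which electric pulses kill the cells of a small area. According to the labels, 8 pulses of 50 ms were given at 75 V with 1 s between them, and the same area was punched out at 4 mm and digested with enzymes. Each library pooled 3 livers and each condition had 1 library, so that no test between conditions was possible. All intervals given for these values are at a level of 95% and cover counting error only.

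T cells carry a receptor made of an alpha and a beta chain, or of a gamma and a delta chain, which signals through the CD3 proteins. CD8 marks the cytotoxic lineage, and the chemokine receptor CXCR6 marks T cells and natural killer (NK) T cells that stay in the liver sinusoids. T cells without both include CD4 helper and regulatory cells, gamma delta T cells and naive cells that circulate between blood and lymph nodes. They also include any CD8 or CXCR6 cell whose transcript was missed at low depth.

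The T cell genes of the rule encode CD3 chains (Cd3d, Cd3e and Cd3g) and the constant parts of the alpha chain (Trac) and of the beta chain (Trbc1 and Trbc2). The last pair is shown because a cell could enter with these genes alone, although they are close copies. In the GENCODE transcripts of the mouse genome build GRCm38, their coding parts of 518 bases differed at 23 positions, were 95.6% identical and shared an unbroken stretch of 259 bases. The 2 stretches of 30 bases below hold most of the differences near the 3′ end of the coding part, counted from its first base, and capitals mark the bases that differ between the pair.
Trbc1, bases 385 to 414: tTacCtcagcatcctatcaAcaAggggtCT
Trbc2, bases 385 to 414: tCacTtcagcatcctatcaTcaGggggtTC
Trbc1, bases 479 to 508: tACActggtgGtgatggcTatggtcaaAaG
Trbc2, bases 479 to 508: tGGCctggtgCtgatggcCatggtcaaGaA
The first stretch differed at 6 bases and the second at 7. Which part of these genes the reads covered was not analysed here, so that a split of reads between the pair is uncertain. Only 25 control cells, 25 cells on day 1 and 6 cells on day 7 (7.79, 11.7 and 10.7%) had Trbc1 and Trbc2 as their only T cell genes.

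Most of the cells passed the rule by its minimum. Exactly 2 of the 6 T cell genes were found in 233 of 321 control cells, 156 of 213 cells on day 1 and 38 of 56 cells on day 7 (72.6, 73.2 and 67.9%), and no cell had all 6. Just outside the rule were 647, 814 and 134 cells, respectively, with 1 T cell gene and no Cd8 or Cxcr6 UMI. Trbc2 was the gene found most often, in 218, 143 and 38 cells, followed by Cd3d in 181, 93 and 35 cells. Cd3e was the gene found least often, in 49, 20 and 5 cells. A CD3 gene together with a receptor chain gene was found in 231, 142 and 46 cells (72.0, 66.7 and 82.1%). In the barcodes with fewer than 200 genes, the rest of the rule was met by 51 of 5318 control barcodes, 42 of 8908 barcodes on day 1 and 23 of 6842 barcodes on day 7.

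The absence of a Cd8 or Cxcr6 UMI did not show the absence of the protein or of the transcript. Among T cells with a UMI of Cd8a or Cd8b1, which are called CD8 T cells here, 40 of 62 control cells, 16 of 24 cells on day 1 and 23 of 50 cells on day 7 had only 1 such UMI. When these cells were thinned at random to 300 UMIs each, 35 of 62, 9 of 24 and 19 of 48 had none left. Of the T cells with Cxcr6 but no Cd8 (called Cxcr6 T cells), 48 of 58, 19 of 25 and 4 of 5 had only 1 Cxcr6 UMI. The T cells without either can therefore include cells of both classes.

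Their depth was low and differed between libraries. They held 285804 UMIs in control, 177932 on day 1 and 26547 on day 7, with medians of 682, 562 and 414 UMIs per cell and of 387, 338 and 303.5 genes. Of these UMIs, 19.4, 17.5 and 4.28% were mitochondrial. On day 1, 7 cells above 2500 UMIs held 25.2% of the UMIs, against 6 cells with 7.27% in control and none on day 7. No barcode was one of these T cells in a pair of libraries, although pairs of libraries shared 44 to 149 cell barcodes.

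As a share of all cells, T cells without Cd8 and Cxcr6 made up 3.09% in control (exact binomial interval 2.77 to 3.44%), 2.30% on day 1 (2.01 to 2.63%) and 0.996% on day 7 (0.753 to 1.29%). Their share of all T cells was 72.8% in control (321 of 441, 68.4 to 76.9%), 81.3% on day 1 (213 of 262, 76.0 to 85.8%) and 50.5% on day 7 (56 of 111, 40.8 to 60.1%). The interval on day 7 lay below the others on both denominators. CD8 T cells numbered 62, 24 and 50, so that the share of T cells without a detected Cd8 or Cxcr6 transcript was lowest where the share of CD8 T cells was highest, at 45.0% of T cells against 14.1% in control and 9.16% on day 1. The rule fixes that these shares trade off, and the makeup of each library (myeloid or endothelial cells captured) sets the denominator of the share of all cells.

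**Figure D1:**
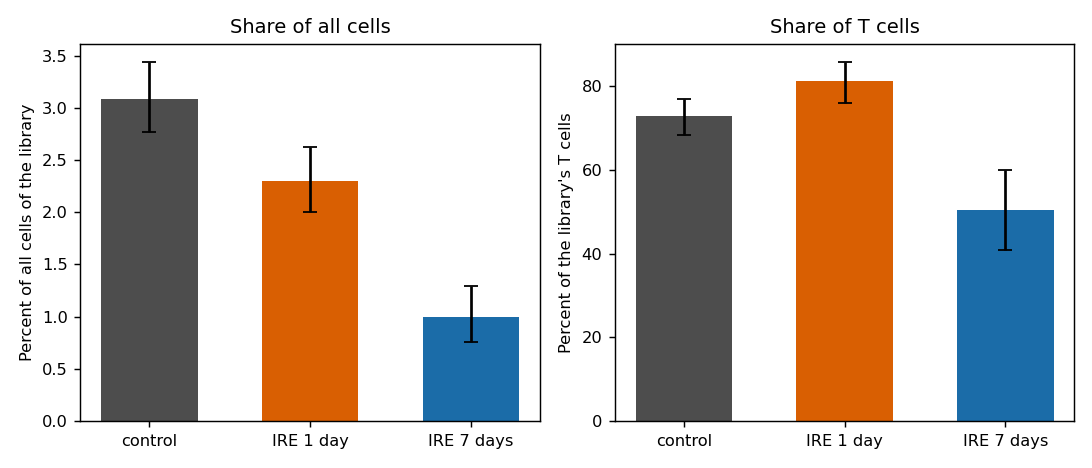
T cells without Cd8 and Cxcr6 as a percentage of all cells and of all T cells (y axes, %) in the control library and on day 1 and day 7. Bars give the share and lines its exact 95% binomial interval; the share of all cells goes from 3.09 to 2.30 and 0.996%, and the share of T cells is lowest on day 7 at 50.5%.

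T cell genes that the rule had not used marked these cells in each library. Levels are given as CPM (UMIs of a gene per 1000000 UMIs) summed over the cells of a library, and the comparison with all other cells describes what the rule selected. Genes of T cell receptor signalling, summed over a list of 17, stood 4.05 times as high as in other cells in control, 2.61 times on day 1 and 6.90 times on day 7. This was not particular to the T cells without Cd8 and Cxcr6, which were at 1683, 1147 and 2260 CPM. CD8 T cells were at 2017, 1356 and 3214 CPM and Cxcr6 T cells at 2034, 1830 and 3563 CPM. Among 403 genes with at least 10 UMIs in the cells of each library, those with the largest ratio to other cells after the rule's own were Sh2d1a, Ms4a4b, Lat, Gimap7 and Thy1. Sh2d1a, which encodes the signalling adaptor SAP, was 7.66, 12.5 and 38.1 times as high as in other cells in the control, 1 day and 7 day libraries. Lat, the scaffold that the activated receptor uses, was 10.4, 6.06 and 40.8 times as high. Ptprcap, Nkg7, Gzmb, Ccl5, Hmgb2, Hcst, Cnn2, Il2rg, Sh3kbp1 and Rac2 followed, with smallest ratios between 4.42 for Ptprcap and 2.24 for Rac2. The rule chose cells by T cell genes, and the ranking asked for UMIs in the chosen cells. These ratios therefore describe the choice and do not test the label of T cells.

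The markers of naive T cells, Lef1 and Tcf7, which encode transcription factors that keep T cells in a resting state, were found in few of these cells. A UMI of Lef1 was found in 15 control cells, 17 cells on day 1 and 5 cells on day 7 (4.67, 7.98 and 8.93%). For comparison, Lef1 was found in 1.80, 3.48 and 0% of B cells (median depths 602, 527 and 379 UMIs) and in 0.230, 0.819 and 0% of sinusoidal endothelial cells. The 0 of 12 B cells and 0 of 59 thinned endothelial cells on day 7 allow shares of cells with a UMI of up to 25% and 5.08%, at the floor of 3 counts. After thinning to 300 UMIs per cell, Lef1 was found in 6 of 320, 8 of 206 and 2 of 46 of the T cells, so that its interval on day 7 ran from 0.531 to 14.8%. Tcf7 was found in 17, 9 and 2 cells (5.30, 4.23 and 3.57%), and only 3, 0 and 2 cells had both genes. The level of Lef1 was 56.0 CPM in control, 101 on day 1 and 188 on day 7, with ratios to control of 1.81 (conditional binomial interval 0.870 to 3.79) and 3.36 (0.964 to 9.61), which do not exclude equal levels.

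At least 1 UMI of the wider list of 12 naive and recirculating T cell genes was found in 155 control cells, 97 cells on day 1 and 21 cells on day 7 (48.3, 45.5 and 37.5%), against 50.3, 48.4 and 49.3% of endothelial cells and 55.9, 50.4 and 66.7% of B cells. The genes Klf2, S1pr1 and Foxp1 on this list are also used by endothelial or B cells. The summed level was 1039 CPM in control, 1034 on day 1 and 1243 on day 7. It stood 1.48 (1.31 to 1.66), 1.09 (0.935 to 1.26) and 2.05 (1.41 to 2.89) times as high as in all other cells of the library. The intervals of both ratios to control, 0.995 (0.823 to 1.20) and 1.20 (0.808 to 1.72), included 1. On day 1, 1 of 10 members (Igfbp4) was at least 2-fold higher, where 17.5% of all genes were, and 1 (Satb1) at least 2-fold lower, where 15.1% were. Igfbp4 was at 87.5 CPM in control and 292 on day 1, and at 180 and 457 CPM in other cells. How far the sum on day 1 rested on Igfbp4 was not tested. Il7r, the receptor for the survival cytokine interleukin 7, was found in 43, 24 and 3 cells (13.4, 11.3 and 5.36%), against 1.53, 1.37 and 1.49% of endothelial cells. Its CPM was 217, 185 and 151, a difference within the counting error, against 86.6, 36.8 and 95.5 over all cells. Satb1, a chromatin organiser of T cells, went from 34 UMIs in control to 3 on day 1 (ratio 0.142, 0.0279 to 0.451) and 1 on day 7 (0.317, 0.00779 to 1.89).

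Lineage genes of CD4 T cells were scarce at this depth. Cd4 itself was found in 10 control cells, 3 cells on day 1 and 0 cells on day 7 (3.12, 1.41 and 0%). After thinning, the 0 of 46 cells on day 7 allow a share of cells with a UMI of up to 6.52%. Foxp3, which defines regulatory T cells, was found in 0 of 320, 0 of 206 and 0 of 46 thinned cells, which allow shares of cells with a UMI, not of cells that express it, of up to 0.938, 1.46 and 6.52%. It had no UMI in the unthinned counts of the 590 cells either. The other helper genes were Icos, a costimulatory receptor, and Cd40lg, the ligand that helps B cells. Icos had 49, 11 and 3 UMIs, or 171, 61.8 and 113 CPM, with a ratio to control of 0.361 on day 1 (0.169 to 0.703) and of 0.659 on day 7 (0.131 to 2.04). Cd40lg had 14, 4 and 0 UMIs. The 4 helper genes together were at 273, 124 and 151 CPM, a ratio of 0.453 on day 1 (0.269 to 0.735) and of 0.552 on day 7 (0.147 to 1.47).

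Of the genes of the polarised T cell states, those of type 1 were found in the largest shares. At least 1 UMI of the 8 type 1 genes was found in 104, 39 and 19 cells (32.4, 18.3 and 33.9%), against 7.48, 3.29 and 1.79% for the type 2 genes and 10.3, 7.04 and 3.57% for the type 17 genes. Their sum was 507 CPM in control, 281 on day 1 (ratio 0.554, 0.393 to 0.769) and 942 on day 7 (1.86, 1.16 to 2.85). With at least 300 genes per barcode the ratio on day 7 was 1.11 (0.520 to 2.11), and without barcodes over 20% mitochondrial UMIs the ratio on day 1 was 0.265 (0.143 to 0.458). Il18r1, the receptor chain for interleukin 18, carried part of the difference on day 1, with 46 control UMIs against 6 (ratio 0.210, 0.0731 to 0.492). Ifng, the cytokine of type 1 cells, had 15, 6 and 5 UMIs, or 52.5, 33.7 and 188 CPM, a ratio of 3.59 on day 7 (1.02 to 10.4). Gata3, the transcription factor of type 2 cells and of T cell development, had 22, 3 and 1 UMIs, a ratio of 0.219 on day 1 (0.0420 to 0.729). The 7 type 17 genes were at 185, 101 and 113 CPM, and Il17a was at 0 UMIs in all 3 libraries. The 9 genes of regulatory T cells were at 262, 214 and 490 CPM, and most of their UMIs came from Tnfrsf18 and Ikzf2, the first of which activated T cells also use. On day 1, Lrrc32 gave 8 of the 38 UMIs, at 45.0 CPM against 53.0 in other cells.

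Genes of gamma delta T cells were found in a minority. The list of 7 also holds Cd163l1, Trdv4 and Sox13, which are not genes of the gamma chain. It was at 140 CPM in control, 191 on day 1 and 75.3 on day 7, the last from 2 UMIs. These levels were 12.7 (8.51 to 18.7), 14.5 (9.41 to 22.0) and 22.8 (2.43 to 107) times those of other cells. The list was found in 28, 28 and 2 cells (8.72, 13.1 and 3.57%). The ratio to control on day 1 was 1.37 (0.838 to 2.21), but 0.617 (0.268 to 1.31) without barcodes over 20% mitochondrial UMIs and 3.52 (1.29 to 9.35) without cells bearing markers of another class. Tcrg-C1, a constant part of the gamma chain, had 7 UMIs in control and 13 on day 1, or 24.5 and 73.1 CPM, a ratio of 2.98 (1.11 to 8.83). It had 0 UMIs on day 7. Tcrg-C2 had 10, 12 and 2 UMIs and Tcrg-C4 10, 7 and 0. These constant genes are close copies, so that the split between them is uncertain, and gamma transcripts also occur in alpha beta T cells. In Cxcr6 T cells the list of 7 was at 127, 247 and 0 CPM, from 7, 5 and 0 UMIs. In CD8 T cells it was at 91.0, 0 and 0 CPM.

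The lists overlapped within single cells. A naive gene and a cytotoxic gene were found together in 95 control cells, 62 cells on day 1 and 16 cells on day 7 (29.6, 29.1 and 28.6%). A naive gene was found in 155, 97 and 21 cells in all, and a cytotoxic gene in 214, 138 and 48. Whether lists overlapped more than such counts would give was not tested. A cytotoxic gene and a type 1 gene were found together in 74, 27 and 17 cells. None of the 8 lists of T cell programmes was found in 24, 20 and 1 cells (7.48, 9.39 and 1.79%). Single genes were found in fewer cells than their lists, and their overlap was smaller. Lef1 and Ccl5 were found together in 3, 2 and 3 cells and Cd4 and Ccl5 in 2, 2 and 0 cells.

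**Figure D2:**
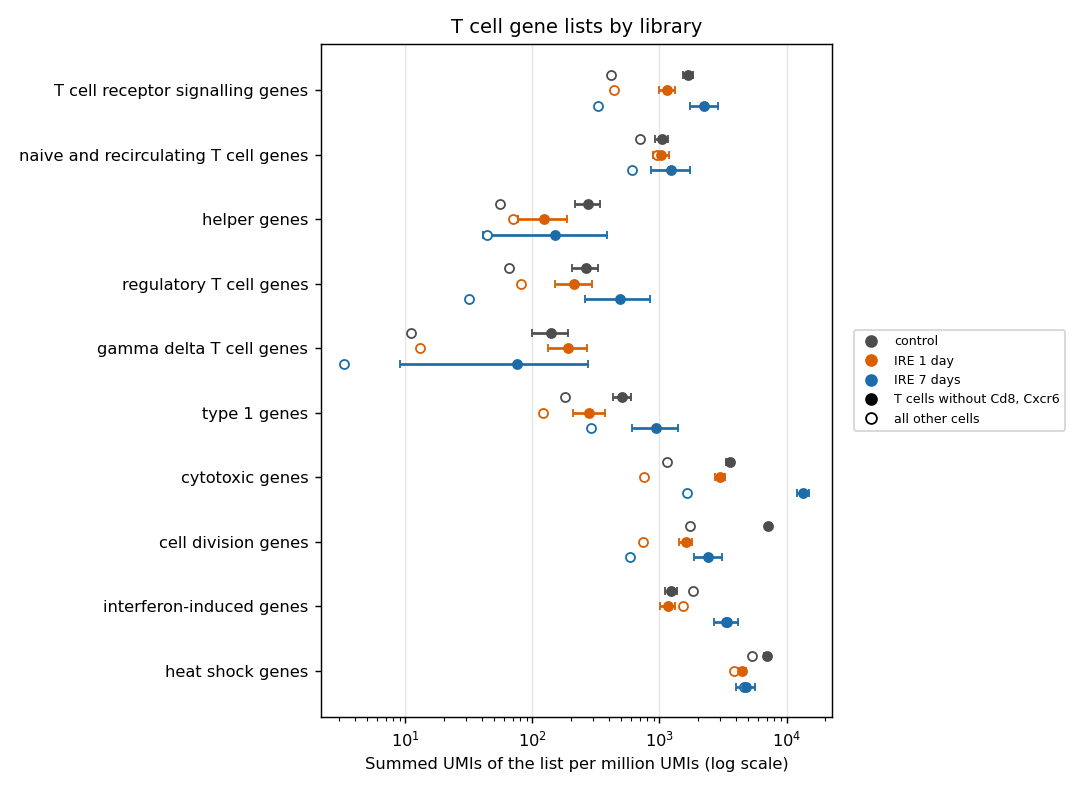
Summed CPM (x axis, log scale) of 10 lists of T cell genes in the control library and on day 1 and day 7. Filled points are T cells without Cd8 and Cxcr6, with exact 95% Poisson intervals, and open points are all other cells of the same library; the cytotoxic list reaches 13523 CPM in the T cells on day 7, and the cell division list is highest in control at 7187 CPM.

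On day 7 the cytotoxic and effector genes were higher in these cells than in control. The list of 15 genes, which holds granzymes, perforin, killer receptors and the chemokines that effector cells release, was at 3579 CPM in control (1023 UMIs), 2990 on day 1 (532 UMIs) and 13523 on day 7 (359 UMIs). The ratio to control on day 7 was 3.78 (3.34 to 4.26). Of the 13 members with at least 10 UMIs in both libraries together, 8 were at least 2-fold higher on day 7 and none was 2-fold lower, where 18.4% of the 4341 genes with that many UMIs were at least 2-fold higher and 28% at least 2-fold lower. The median log2 ratio was 1.43 for the list. For all genes it was -0.06, or 0.43 when the 871 genes at 0 UMIs were set to a floor of 3 counts. The T cell genes that chose the cells were also higher on day 7, at 6780 CPM against 3523 in control (ratio 1.92). CD8 T cells were 14.1, 9.16 and 45.0% of T cells in the control, 1 day and 7 day libraries. Some CD8 T cells that kept at least 2 T cell genes after thinning had no Cd8 UMI left. They were 7 of 18, 3 of 10 and 12 of 35. The part of such missed CD8 T cells in the ratio of 3.78 was not tested.

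Ccl5, a chemokine released by effector and memory T cells, gave 391 of the 1023 UMIs of the list in control, 247 of 532 on day 1 and 193 of 359 on day 7. Its level was 1368, 1388 and 7270 CPM. The ratio to control was 1.01 on day 1 (0.862 to 1.19) and 5.31 on day 7 (4.45 to 6.33). It was found in 38.3, 42.3 and 71.4% of the cells, and after thinning in 26.2% (21.5 to 31.4%), 31.6% (25.3 to 38.4%) and 56.5% (41.1 to 71.1%). Cells that should lack Ccl5 gave lower shares, 13.5, 8.70 and 0% of B cells and 6.27, 12.3 and 7.46% of endothelial cells. Barcodes with fewer than 200 genes were at 462, 323 and 391 CPM of Ccl5, without a difference on day 7 of the size seen in the T cells.

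The granule genes had the same order of libraries on day 7 but differed on day 1. Nkg7, a granule protein of cytotoxic cells, was at 546, 540 and 1770 CPM, with ratios to control of 0.988 (0.758 to 1.28) and 3.24 (2.29 to 4.52). Gzmb, which encodes granzyme B, was at 294, 146 and 1394 CPM from 84, 26 and 37 UMIs. Its ratio was 0.497 on day 1 (0.307 to 0.780) and 4.74 on day 7 (3.13 to 7.06), and it was found in 13.4, 9.39 and 33.9% of the cells. Gzma, which encodes granzyme A, was at 577, 281 and 1130 CPM, with ratios of 0.487 (0.347 to 0.672) and 1.96 (1.28 to 2.90). Prf1, the pore-forming protein that lets granzymes into target cells, had 7, 1 and 8 UMIs, the last from 3 cells, a ratio of 12.3 on day 7 (3.90 to 39.9). Klrk1, which encodes the receptor NKG2D, had 32, 21 and 8 UMIs and a ratio of 2.69 on day 7 (1.07 to 5.96). The levels of Gzmb and Nkg7 in other cells stayed between 36.9 and 129 CPM in the 3 libraries.

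Ccl4, a member of the list and a chemokine that myeloid cells also release, was higher outside the T cells on day 7, at 414 CPM in the T cells (11 UMIs) and at 943 CPM over all cells of that library. Ccl3, which the list does not hold, was at 226 CPM (6 UMIs) against 582 CPM over all cells. The part of free or myeloid RNA in these values was not tested. Ms4a4b, a membrane protein of T cells that belongs to none of the lists, was at 1001, 641 and 3729 CPM in the T cells, with a ratio of 3.73 on day 7 (2.93 to 4.70), against 141, 95.6 and 148 CPM in other cells.

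**Figure D3:**
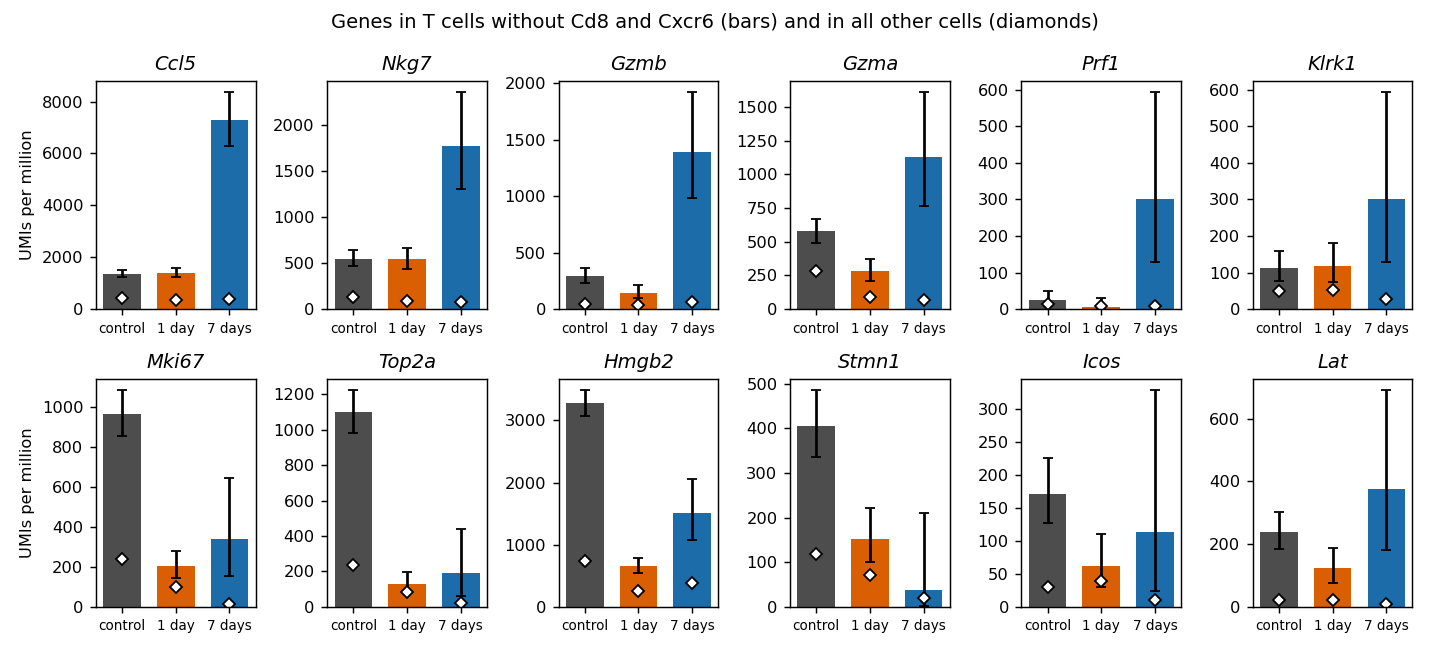
CPM (y axes, each from 0) of 12 genes in T cells without Cd8 and Cxcr6 (bars, with exact 95% Poisson intervals) and in all other cells (diamonds) of the control library and on day 1 and day 7. Ccl5, Nkg7 and Gzmb are highest on day 7, at 7270, 1770 and 1394 CPM, and Mki67, Top2a and Hmgb2 are highest in control.

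On day 1 the sum of the cytotoxic genes was slightly lower than in control, with a ratio of 0.835 (0.751 to 0.928). This direction held in 7 of 10 alternative settings. Without the 6 control cells and 7 day 1 cells above 2500 UMIs the ratio was 1.06 (0.952 to 1.18), and in cells thinned to 300 UMIs it was 1.00 (0.856 to 1.18). Without cells bearing markers of another class it was 1.52 (1.25 to 1.84). Of 12 members, 3 (Gzma, Gzmb and Eomes) were at least 2-fold lower and none was 2-fold higher, where 15.1% of the 5948 genes tested were at least 2-fold lower and 17.5% at least 2-fold higher.

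The genes of T cell receptor signalling were lower on day 1 in sum, but not in the number of members past 2-fold. Their sum was 1683 CPM in control, 1147 on day 1 (ratio 0.681, 0.575 to 0.804) and 2260 on day 7 (1.34, 1.01 to 1.76). With at least 3 T cell genes asked for, the ratio on day 7 was 0.827, and without cells bearing markers of another class the ratio on day 1 was 0.828 (0.575 to 1.17). Lat had 68, 22 and 10 UMIs, or 238, 124 and 377 CPM, with a ratio of 0.520 on day 1 (0.306 to 0.851). Lck, the kinase that starts receptor signalling, was at 255, 163 and 301 CPM, with a ratio of 0.638 on day 1 (0.400 to 0.994). Only 3 of 15 members, Grap2 and Prkcq among them, were at least 2-fold lower on day 1 and none was 2-fold higher, where 15.1% of all genes were at least 2-fold lower. Thy1, a surface glycoprotein of T cells, was also lowest on day 1, with 472, 219 and 452 CPM and ratios of 0.464 on day 1 (0.316 to 0.667) and 0.957 on day 7 (0.482 to 1.73).

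Homing receptors and integrins, which guide T cells into tissues, stood at 2278, 1501 and 3503 CPM. The ratio was 0.659 on day 1 (0.569 to 0.761) and 1.54 on day 7 (1.22 to 1.91). Other cells had the same order, at 1717, 1101 and 2545 CPM, so that the T cells stood 1.33, 1.36 and 1.38 times above them. After thinning to 300 UMIs the ratio on day 1 was 0.831 (0.662 to 1.04). Itga4, an integrin chain used for entry from the blood, had 55, 10 and 6 UMIs and a ratio of 0.292 on day 1 (0.133 to 0.578). Ccr2, a receptor for chemokines of inflamed tissue, was at 360, 174 and 452 CPM, with a ratio of 0.483 on day 1 (0.313 to 0.728), and at 413, 76.1 and 753 CPM in other cells. Residency genes were at 420, 388 and 490 CPM, and neither ratio to control excluded 1.

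Cell division genes were lower than in control at both times after injury. Their sum was 7187 CPM in control (2054 UMIs), 1619 on day 1 (288 UMIs) and 2411 on day 7 (64 UMIs). The ratios to control were 0.225 (0.198 to 0.255) and 0.335 (0.257 to 0.430). On day 1, 11 of 13 members were at least 2-fold lower, where 15.1% of all genes were, and none was 2-fold higher. On day 7, 11 of 13 were at least 2-fold lower, where 28% of all genes were, but 5 of the 13 were at 0 UMIs. With a 0 set to the floor of 3 counts, 7 of 13 members and 8.04% of all genes were at least 2-fold lower. When cells with markers of another class were left out, the ratio on day 7 was 2.46, from 2 cells. Division genes were also lower in the other cells of the injured livers, at 1724, 738 and 585 CPM. The T cells stood 4.17, 2.19 and 4.12 times above those levels.

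Mki67, a protein of dividing nuclei, had 276 UMIs in 97 control cells, 36 UMIs in 18 cells on day 1 and 9 UMIs in 3 cells on day 7. Its CPM was 966, 202 and 339, with ratios of 0.210 (0.144 to 0.297) and 0.351 (0.159 to 0.676). Top2a, the topoisomerase that untangles replicated chromosomes, was at 1099, 129 and 188 CPM, with ratios of 0.118 (0.0735 to 0.180) and 0.171 (0.0553 to 0.404). Hmgb2, a chromatin protein of cycling cells, was at 3278, 658 and 1507 CPM, with ratios of 0.201 (0.164 to 0.243) and 0.460 (0.326 to 0.631). Stmn1, which regulates microtubules in mitosis, was at 406, 152 and 37.7 CPM. The S phase gene Pcna was at 248, 163 and 75.3 CPM, and its ratios of 0.656 (0.411 to 1.02) and 0.303 (0.0360 to 1.14) did not exclude equal levels.

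The division transcripts came from a minority of the cells. At least 3 of the 13 genes were found in 108 of 321 control cells (33.6%, 28.5 to 39.1%), 22 of 213 cells on day 1 (10.3%, 6.59 to 15.2%) and 5 of 56 cells on day 7 (8.93%, 2.96 to 19.6%). The 108 control cells held 91.8% of the division UMIs and had a median of 1152 UMIs, against 580 in the other control cells. Thinned to 300 UMIs per cell, the shares were 17.5% (13.5 to 22.1%), 5.34% (2.70 to 9.35%) and 4.35% (0.531 to 14.8%). CD8 T cells gave shares of 46.8, 12.5 and 14.0%, and after thinning of 27.4, 4.17 and 6.25%, so that the order of control above day 1 was not particular to the T cells without Cd8 and Cxcr6.

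**Figure D4:**
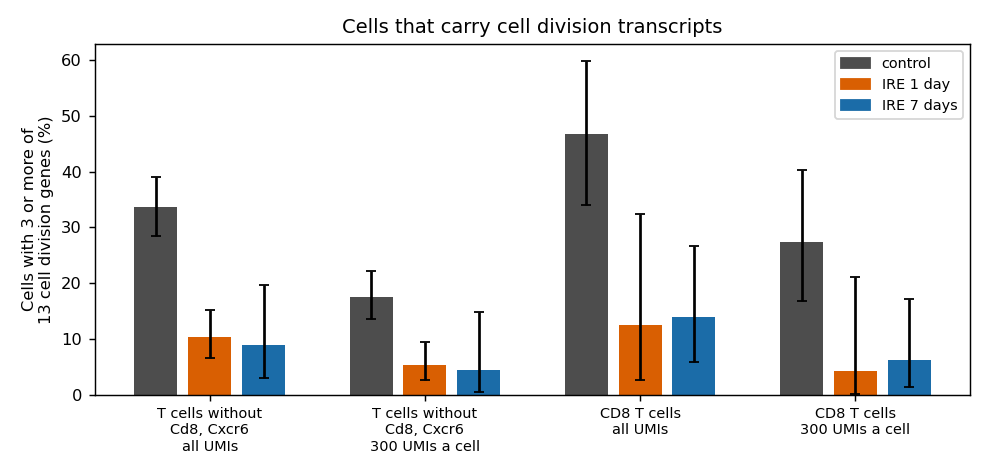
Percentage of cells with UMIs of 3 or more of 13 cell division genes (y axis, %) among T cells without Cd8 and Cxcr6 and among CD8 T cells, with all UMIs and after thinning to 300 UMIs per cell. Bars are the 3 libraries and lines exact 95% binomial intervals; control is highest in each of the 4 sets, at 33.6% with all UMIs and 17.5% after thinning for the T cells without Cd8 and Cxcr6.

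Within the control library, the dividing cells also differed in other genes. Cells with at least 3 division genes were at 2747 CPM of cytotoxic genes (2479 to 3037), against 4372 (4039 to 4724) in the others. They were at 796 CPM of naive genes against 1270, and at 1822 CPM of receptor signalling genes (1605 to 2060) against 1551 (1355 to 1766), where the intervals overlapped. Neutrophil markers were at 3250 CPM in the dividing cells against 1940, and markers of mesenchymal cells at 366 against 1107 CPM. Because the dividing cells were chosen by the number of genes found, they were deeper, and the part of depth in these differences was not tested.

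Interferon-induced genes were higher on day 7, in the T cells as in the rest of the library. In the T cells the sum of 14 genes was 1235 CPM in control, 1163 on day 1 (ratio 0.942, 0.790 to 1.12) and 3353 on day 7 (2.71, 2.13 to 3.43), and 9 of 13 members were at least 2-fold higher on day 7, where 18.4% of all genes were. Other cells were at 1819, 1542 and 3407 CPM. Isg15, a small modifier of proteins, was at 49.0, 28.1 and 301 CPM from 14, 5 and 8 UMIs, a ratio of 6.15 on day 7 (2.24 to 15.7), and over all cells it was at 436 CPM at that time. Usp18, which removes Isg15 from proteins, had 2, 6 and 7 UMIs. Irf7 and Bst2 had ratios of 3.40 (1.11 to 8.85) and 2.63 (1.23 to 5.17) on day 7.

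Immediate early genes, which tissue digestion also induces, were at 1414, 1208 and 2825 CPM, with ratios of 0.855 (0.721 to 1.01) and 2.00 (1.54 to 2.56), while other cells were at 1497, 1069 and 4007 CPM. Activation and checkpoint genes were at 259, 230 and 942 CPM in the T cells and at 322, 206 and 948 CPM in other cells. Cd44, an adhesion receptor of activated T cells, gave 14 of the 25 UMIs on day 7, at 527 CPM against 701 over all cells. Heat shock genes were at 7001, 4451 and 4784 CPM, with ratios of 0.636 (0.585 to 0.691) and 0.683 (0.567 to 0.818), and at 5360, 3884 and 4630 CPM in other cells. Hsp90aa1, a chaperone, was at 973, 405 and 866 CPM, with a ratio of 0.416 on day 1 (0.316 to 0.541).

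Transcripts of other cell types were counted in the T cells and differed between libraries, with a ratio of 65.8 for hepatocyte markers on day 1 to control. Hepatocyte markers were at 584 CPM in control, 38447 on day 1 and 188 on day 7, and were found in 110 of 321, 213 of 213 and 4 of 56 cells. Other cells were at 2462, 34865 and 533 CPM. Neutrophil markers were at 2579, 332 and 29683 CPM, found in 162, 43 and 55 cells, and other cells were at 4080, 759 and 43429 CPM. On day 1, Alb was found in 88.7% of the T cells, 87.8% of B cells and 91.2% of endothelial cells. On day 7, S100a8 was found in 87.5% of the T cells, 83.3% of the 12 B cells and 85.1% of endothelial cells. Both genes were thus found in the T cells at shares close to those in B cells and endothelial cells. The part of free RNA in these shares was not tested.

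The remaining lists were mostly lower in the T cells than in other cells. Macrophage and monocyte markers were at 3338, 5036 and 4897 CPM, or 0.278, 0.490 and 0.337 times the level of other cells. B cell markers were at 3174, 2641 and 1544 CPM, and endothelial markers at 679, 2900 and 264 CPM. The B cell list also holds Cd74, H2-Aa, H2-Ab1 and H2-Eb1, which macrophages and dendritic cells share. Of its 907 UMIs in control, H2-Ab1 gave 375 and H2-Aa 146. Mesenchymal markers were at 745, 16.9 and 0 CPM, erythroid markers at 56.0, 22.5 and 0 CPM, plasmacytoid dendritic cell markers at 87.5, 202 and 0 CPM, and markers of mast cells and basophils at 0 UMIs in all 3 libraries. NK cell markers were at 1344, 1208 and 3127 CPM, against 2577, 1806 and 6277 in other cells. Tyrobp and Fcer1g, which myeloid cells share, made up 45 and 35 of the 83 UMIs on day 7, and the NK receptor genes Ncr1 and Klrb1c had 0 and 1 UMIs. At least 2 markers of B cells, macrophages, neutrophils or endothelial cells were found in 163 of 321, 160 of 213 and 54 of 56 cells.

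**Figure D5:**
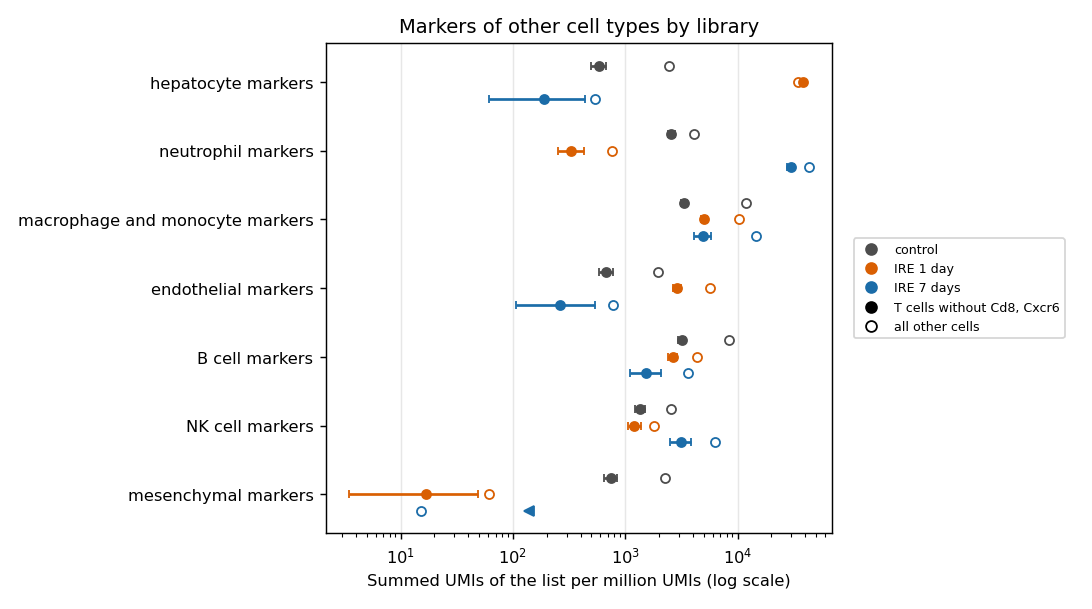
Summed CPM (x axis, log scale) of 7 marker lists of other cell types in T cells without Cd8 and Cxcr6 (filled points, exact 95% Poisson intervals) and in all other cells (open points) of each library. The filled triangle is the upper limit of the interval for a sum of 0; hepatocyte markers are highest on day 1 at 38447 CPM and neutrophil markers on day 7 at 29683 CPM, in T cells and other cells alike.

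These transcripts also led the list of single genes. On day 1, 11.4% of the 2396 genes with at least 30 UMIs were at least 2-fold higher than in control and 11.9% at least 2-fold lower. The 10 genes with the highest ratios, ranked by the bound of the interval nearest to 1, were Fabp1, Serpina1c, Alb, Apoa2, Apoa1, Mup3, Apoc4, Ttr, Rbp4 and Pck1, all of which hepatocytes express. Alb was 102 times as high (73.1 to 147), and Serpina1c, at 0 control UMIs, was at least 106-fold higher when the 0 was set to the floor of 3 counts over the cells of the library. The 10 lowest ratios were those of the division genes Top2a, Hist1h1b, Kif20b, Cdca8 and Cenpe, the neutrophil markers S100a8 and S100a9, and the matrix genes Col1a2, Col3a1 and Postn. Hist1h1b, a linker histone made in S phase, had 52 control UMIs and 1 on day 1 (ratio 0.0309, 0.000767 to 0.180). Col1a2 had 91 UMIs in 26 control cells and 0 on day 1, at least 18.9-fold lower, and was at 842 CPM over all control cells against 12.3 on day 1.

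On day 7, 14.3% of 1552 genes were at least 2-fold higher and 18.9% at least 2-fold lower. The 10 highest ratios were those of Thbs1, Arg1, Cxcl2, Slpi, Retnlg, S100a8, S100a9, Cxcr2, Fth1 and Ccl6, which neutrophils, monocytes or macrophages express. Each of these 10 was lower in the T cells than over all cells of that library, as for S100a8, at 13824 against 19867 CPM, and Arg1, at 2448 against 5593 CPM. The 10 lowest ratios were those of the division genes Cenpe, Cenpf, Top2a and Stmn1, and of Smc1a, Anp32b, Col1a2, Sepp1, Clec4f and Fabp4. Kupffer cells (the resident macrophages of the liver) or hepatocytes express Sepp1 and Clec4f. Cenpf had 120 control UMIs and 0 on day 7, at least 3.72-fold lower. No T cell effector gene was among the 10 highest ratios at either time.

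The T cells without Cd8 and Cxcr6 were compared with the CD8 T cells within the libraries. The test was edgeR's quasi-likelihood test on UMIs summed per class and library, with the library as a block. Its p-values measure how the difference between the classes varied over 3 pooled libraries, which were 3 conditions and not replicates of 1 condition. Of 940 genes outside the rule, 0 were higher at an FDR of 0.05 and 5 (0.532%) were lower in the T cells without Cd8 and Cxcr6, while 61 had an unadjusted p under 0.05. DESeq2 called 0, with 11 at an unadjusted p under 0.05. The 5 genes were Hpx, Serpina1c, Apoc3, Ahsg and Ttr, all secreted by hepatocytes. Hpx had a log2 fold of -1.89 (SE 0.40, edgeR adjusted p = 0.0404), from 540 against 2191 CPM on day 1, while the control and 7 day libraries held 1 to 6 UMIs per class. Ttr had a log2 fold of -1.21 (SE 0.27, edgeR adjusted p = 0.0404), from 4547 against 12903 CPM on day 1, and was lower in 1 of 3 libraries only. None of the 5 was called when the day 1 library was left out. In that library hepatocyte markers took 7.98% of the UMIs of CD8 T cells and 3.84% of those of the T cells without Cd8 and Cxcr6.

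No effector gene passed the threshold between the T cells without Cd8 and Cxcr6 and the CD8 T cells. Ccl5 was at 1368, 1388 and 7270 CPM against 2290, 2643 and 9356 CPM, lower in 3 of 3 libraries, with a log2 fold of -0.62 (SE 0.16, edgeR adjusted p = 0.0926). Gzmb was at 294, 146 and 1394 CPM against 576, 313 and 2178 CPM, also lower in 3 of 3 libraries, with a log2 fold of -0.82 (SE 0.31, edgeR adjusted p = 0.424). Nkg7 was lower in 3 of 3 libraries with a log2 fold of -0.40 (SE 0.24, edgeR adjusted p = 0.817). Gzma was at 577 against 2685 CPM in control and at 281 against 174 CPM on day 1, with no common direction. Both classes were highest in Ccl5, Nkg7 and Gzmb on day 7. In simulated counts for this comparison over 940 genes, 39.4% of 2-fold and 98.0% of 4-fold differences were recovered. The spread of these counts was set and not estimated from the libraries. The shares therefore do not give how many real differences the test would find.

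Against the Cxcr6 T cells, 0 of 804 genes were higher and 0 lower (0% in either direction) at an FDR of 0.05 by edgeR's quasi-likelihood test, with 29 genes at an unadjusted p under 0.05. DESeq2 called 0 as well, with 4 at an unadjusted p under 0.05. The day 7 library held 5 Cxcr6 T cells and 3087 UMIs. Gzma had the same direction in 3 of 3 libraries, at 577 against 363 CPM in control, 281 against 98.9 on day 1 and 1130 against 324 on day 7, with a log2 fold of 1.10 (SE 0.40, edgeR adjusted p = 0.974). Ccl5 was at 1368 against 1434 CPM in control, at 1388 against 2769 CPM on day 1 and at 7270 against 324 CPM on day 7, the last from 1 UMI in the Cxcr6 T cells.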

How the data were processed

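The authors used the Drop-seq tools, per the file headers, and deposited raw UMI counts, collapsed at an edit distance of 1 from reads with a mapping quality of at least 10 on the sense strand of exons. Free RNA was not corrected for here. The submitters' processing notes name STAR 2.5.2a and the genome build hg19, a human build, whereas the gene symbols are those of the mouse, and coordinates are therefore left out. Although 200 genes per barcode stand as a minimum in the headers, some barcodes had only 11.

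The T cells and all gene lists were chosen with earlier results of these data known. UMIs were summed over the T cells of each library and divided by their total (CPM). Sums have exact Poisson, shares exact binomial (Clopper-Pearson) and ratios conditional binomial intervals at 95%. Lists were described over genes with at least 10 UMIs in both libraries together. A count of 0 was set to a floor of 3 counts per library for a bound, and a share of 0 cells to 3 cells. Other cells are all remaining cells of a library. B cells had at least 2 genes of a marker list that held Cd79a, Cd79b and Ms4a1, and endothelial cells at least 3 of Kdr, Stab2, Clec4g, Fcgr2b, Egfl7, Ptprb, Oit3 and Dnase1l3. No doublet caller was run, and cells with markers of another class were left out as an alternative. The named genes were the genes of the rule, Lef1 and Tcf7, the 10 highest and 10 lowest ratios to control at each time among genes with at least 30 UMIs (by the bound of the interval nearest to 1, without mitochondrial genes), up to 10 called genes per direction between classes, the 20 genes with the largest ratio to other cells, and list members with at least 10 UMIs. Some genes that these rules name are not reported here. Genes named outside these rules were chosen after their values were seen.

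Classes were compared with edgeR 4.0.16 (R 4.3.3, glmQLFit and glmQLFTest after filterByExpr, Benjamini-Hochberg adjustment), tested on simulated data, and with DESeq2 1.42.0. Other values were computed in Python 3.11.15 with numpy 2.4.6 and scipy 1.17.1, and plots with matplotlib 3.10.9. The alternatives changed the minimum of genes, T cell genes and UMIs, the mitochondrial limit, the denominator, the depth, the doublet filter, the normalization, the tool, the block and the libraries. Alternatives that left out cells above 2500 UMIs, cells with only Trbc1 and Trbc2 or dividing cells, or took a denominator without neutrophil, macrophage and hepatocyte markers, were added after seeing the data.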

Additional observations from a re-analysis of the deposited data

How the results depend on the processing

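Depth was a limit, since the T cells held few UMIs on day 7. Markers of another class were a further limit, since 2 T cells remained on day 7 when cells with such markers were left out. As shares of all cells, the T cells without Cd8 and Cxcr6 made up 3.53% in control and 2.89% on day 1 with at least 300 genes per barcode. With 3 T cell genes asked for, they made up 0.847, 0.616 and 0.320% in the 3 libraries. Without cells bearing 2 markers of another class, they made up 1.52, 0.573 and 0.0356%, and without barcodes over 20% mitochondrial UMIs 2.76% in control. The order of the 3 libraries held in these settings.

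The cytotoxic ratio on day 7 stayed above 1 in 10 of 10 alternatives, at 7.11 without markers of another class, 4.45 with the mitochondrial limit, 3.18 without mitochondrial and hepatocyte genes in the denominator, 3.19 without dividing cells and 3.27 with neutrophil and macrophage markers left out of the denominator as well. On day 1 it was 0.721 with 300 genes, 0.713 with 3 T cell genes and 0.672 with the mitochondrial limit, but 1.52 without markers of another class, 1.00 after thinning and 1.06 without cells above 2500 UMIs. The division ratio on day 1 ran from 0.200 to 0.341. On day 7 it ran from 0.245 to 0.500, except for 2.46 without markers of another class, where 2 cells remained. In that setting the ratios of regulatory (0.465), type 17 (1.08), gamma delta (3.52), activation (2.04) and residency genes (1.53) on day 1 and of interferon-induced (2.01), immediate early (3.93) and heat shock genes (1.79) on day 7 also moved. With 3 T cell genes, the naive genes were at 1.25 on day 1 and the receptor signalling genes at 0.827 on day 7. Interferon-induced genes were at 1.13 on day 1 without cells above 2500 UMIs. Of 180 planned ratios of lists, 140 moved by less than their counting error, 34 moved further and 6 changed direction. Of 126 ratios added later, 118 did not, 7 moved and 1 changed direction. The causes were not tested.

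Genes past 2-fold numbered 274 higher and 286 lower on day 1 and 222 and 293 on day 7. With 60 UMIs asked for they numbered 123, 121, 84 and 93, since fewer genes remained, and without mitochondrial and hepatocyte genes in the denominator, which moves each log2 ratio on day 7 by -0.25, 130 were higher on day 7. Against CD8 T cells, the 5 lower genes became 0 with DESeq2, with 300 genes and without markers of another class, where the log2 fold of Ttr was 0.26 (the log2 fold of Hpx stayed at -1.83 with DESeq2 and -1.69 with 300 genes), and 8, with 2 higher, under the mitochondrial limit. With no replicate block they became 0. Leaving out each library gave 0 (without day 1) to 13 (without day 7) lower and 0 to 5 (without control) higher genes. Against Cxcr6 T cells, 3 genes were higher without a filter on low counts and 5 with 3 T cell genes. Leaving out each library gave 0 to 6 (without control) higher genes. Leaving out cells with markers of another class could not be fitted there, because the day 7 library then held no Cxcr6 T cells. No paired analysis was possible because each condition was 1 library, for the comparisons between conditions.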
